A study of Drosophila melanogaster with 6 samples.

Results

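The odorant-binding proteins (Obp) are a family of small secreted proteins of Drosophila melanogaster, and 47 Obp genes were followed here in foxL1 null and wild-type embryos. Members were chosen by name, as every gene whose current symbol is Obp followed by a number, which is that of the chromosome band. The measured value used in the choice was the mean signal over the 6 arrays: where a gene had several probe sets, the groups of array probes for a transcript, the one with the highest mean was selected. The 47 genes are those of 51 annotated Obp symbols that had a probe set of their own, out of 11983 genes with such a probe set. The family was singled out with the difference of Obp46a between the genotypes in view, so the counts below describe the family, and no test was made of the family as a whole.

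Odorant-binding proteins carry small hydrophobic molecules through watery fluids. They were first described in the lymph of antennal hairs, where support cells secrete them around the dendrites of olfactory neurons. Many are made elsewhere, in taste organs, fat body, gut, glia or the male accessory gland, whose secretions enter the seminal fluid, and the role of most of them in the embryo is not known.

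Total RNA of whole embryos was hybridised to Affymetrix Drosophila Genome 2.0 arrays, which report each transcript near its 3' end. The foxL1 null embryos had the genotype foxLCr/foxL1del, from flies that carried a deletion allele and a second foxL1 allele, and the wild type was Oregon R, with 3 arrays of independent biological samples each. FoxL1 is a forkhead transcription factor. All samples are labelled as stages 11 to 15, yet the protocol of 8 h of egg collection and 11 h of ageing at room temperature would seem to reach later stages. The null and Oregon R embryos are of different lines, so the foxL1 alleles and the rest of the genetic background cannot be told apart.

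Signals are log2 values from robust multi-array averaging (RMA), a method meant to bring all arrays to a common distribution. They are compared between genotypes within a gene, and not between genes, since probe sets differ in how brightly they report. Arrays correlated at 0.987 to 0.993 within the null group, 0.990 to 0.995 within the wild type and 0.980 to 0.989 between them (Pearson's r across probe sets, which are not independent replicates). FoxL1 itself had signals of 4.23, 4.35 and 3.37 in the null embryos, against 4.85, 5.12 and 5.01 in the wild type (log2 difference -1.01, SE 0.25, limma adjusted p = 0.0489). That call ended when null array 1 or any 1 wild-type array was left out (adjusted p up to 0.155), with a further quantile normalization (0.0761), after centring on array medians (0.0641) and with no shared spread (0.220). The labels do not say whether the probe set lies within the deleted part. Of 23 listed embryonic tissue markers 14 were measured and 13 lay above the median signal. Null array 3 had the lowest weight of the 6 arrays, 0.317 by limma's arrayWeights, and both Obp calls below held without it.

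Among the 47 Obp genes, Obp46a and Obp99b rose in the null embryos, none fell, and 45 did not pass the threshold (limma, Benjamini-Hochberg adjusted p under 0.05 over all 18769 probe sets). These 2 genes were 4.26% of the family, beside 10.2% of all genes called in either direction, 6.24% called higher and 4.00% called lower. With the replicate numbers as a block, which takes out what same-numbered arrays share, Obp83cd, Obp18a and Obp56h fell as well. At an unadjusted p under 0.05 without the block there were 6 members, the others being Obp83cd, Obp18a, Obp44a and Obp56a, which is 12.8% of the family beside 27.1% of all genes. The median difference, null minus wild type, was -0.03 over the family and -0.07 over all genes. In 7 members the null and wild-type arrays did not overlap, 5 of them higher and 2 lower in the null embryos, which is 14.9% of the family beside 31.9% of all genes (14.1% higher and 17.8% lower). These shares are not matched for signal, and dim genes are called less often. Of the family 70.2% lay at or below the median signal of all probe sets, whereas 7741 of the 11983 genes lay above it. Apart from Obp46a, no member differed by 1 log2 unit, as the plot of all differences shows.

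**Figure D1:**
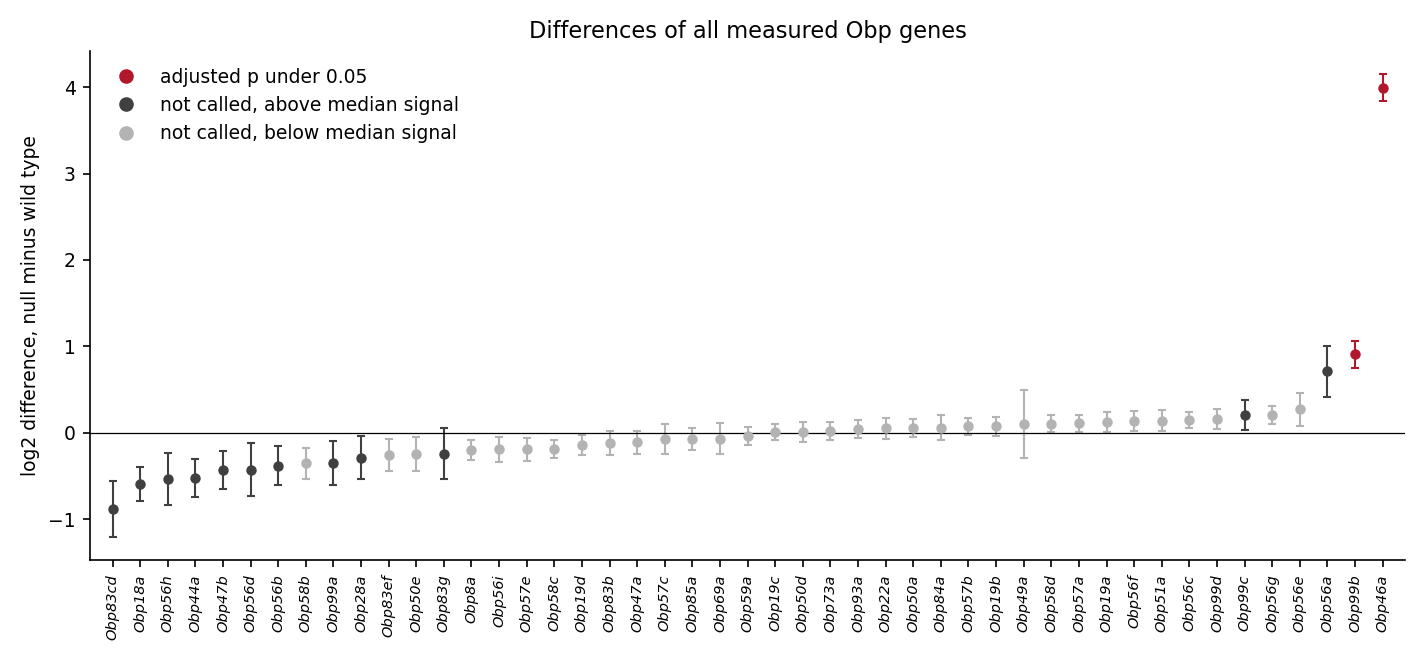
Differences of all 47 Obp genes, in order. The vertical axis is the limma log2 difference, null minus wild type (3 arrays each), with bars of 1 standard error; red points passed an adjusted p of 0.05, dark grey points did not pass and lay above the median signal of all probe sets, light grey points lay below it. Obp46a stands at 3.99, Obp99b at 0.91, and the remaining members lie between -0.87 and 0.71.

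How far a probe set lies above the floor of the arrays sets what it can show. Only 14 of the 47 members had a mean signal above the median of all probe sets, 4.98, while 19 lay between that and the 25th percentile, 2.99, and 14 at or below it. Obp46a counts among the 14 only through its null arrays, at 7.78 on average, against 3.79 in the wild type. Obp56b counts among them only through its wild-type arrays, at 5.24 on average, against 4.86 in the null embryos. Of all genes 14.5% were called above the median, 3.96% between the 25th percentile and the median and 0.233% below the 25th percentile, so for the 14 members at or below that percentile a missing call says little.

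The rise of Obp46a was the greatest fitted rise of all 11983 genes. Obp46a lies on arm 2R and belongs to the Plus-C subfamily, whose proteins carry additional cysteines beside those conserved in the family. Its signal was 8.08, 7.69 and 7.57 in the null embryos and 3.97, 3.64 and 3.75 in the wild type. The lowest null array thus lay far above the highest wild-type array. The means were 7.78 ± 0.27 and 3.79 ± 0.16 (SD, n = 3 each), a 15.9-fold higher signal in the null embryos (log2 difference 3.99, SE 0.16, limma adjusted p = 0.000103). In the null group the mean stood at percentile 77.2 of all probe sets, in the wild type at percentile 39.5, where background compresses a difference, so the fold may be understated. Taken by the replicate number in the titles, the pairs differed by 4.12, 4.05 and 3.82. Over 15 other ways of processing the values the difference ran from 3.84 to 4.16 and the call held in all of them (adjusted p of up to 0.0193).

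The other members of the Plus-C subfamily did not pass. Besides Obp46a, 10 of them were measured, with differences between -0.43 and 0.11, 5 lower and 5 higher, and 0 with an unadjusted p under 0.05. Of these 10, Obp47b was the sole member above the median signal, at 6.26, 5.75 and 6.02 in the null embryos, against 6.85, 6.41 and 6.05 in the wild type (difference -0.43, SE 0.22, limma adjusted p = 0.313). Its null and wild-type values overlapped. Obp49a, which in taste hairs lets bitter compounds suppress the response to sugar, had the widest spread of the dim members. It read 4.36, 3.92 and 5.39 in the null embryos, against 4.98, 3.95 and 4.44 in the wild type (difference 0.10, SE 0.39, limma adjusted p = 0.918).

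Obp99b rose by 0.91 on the log2 scale, a 1.88-fold higher signal. The gene, on arm 3R, is known from the fat body of the adult head, where the sex determination genes control it. Its arrays read 6.57, 6.35 and 5.98 in the null embryos, against 5.31, 5.48 and 5.37 in the wild type. There was no overlap between the genotypes, and the spread was wider among the null arrays. The means were 6.30 ± 0.29 and 5.39 ± 0.09 (SD, n = 3 each; SE of the difference 0.16, limma adjusted p = 0.0130). The pairs of same-numbered arrays differed by 1.25, 0.87 and 0.61. The call ended without wild-type array 1 or 3 (limma adjusted p = 0.0574 and 0.0628), although the difference stayed at 0.87 and 0.90.

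**Figure D2:**
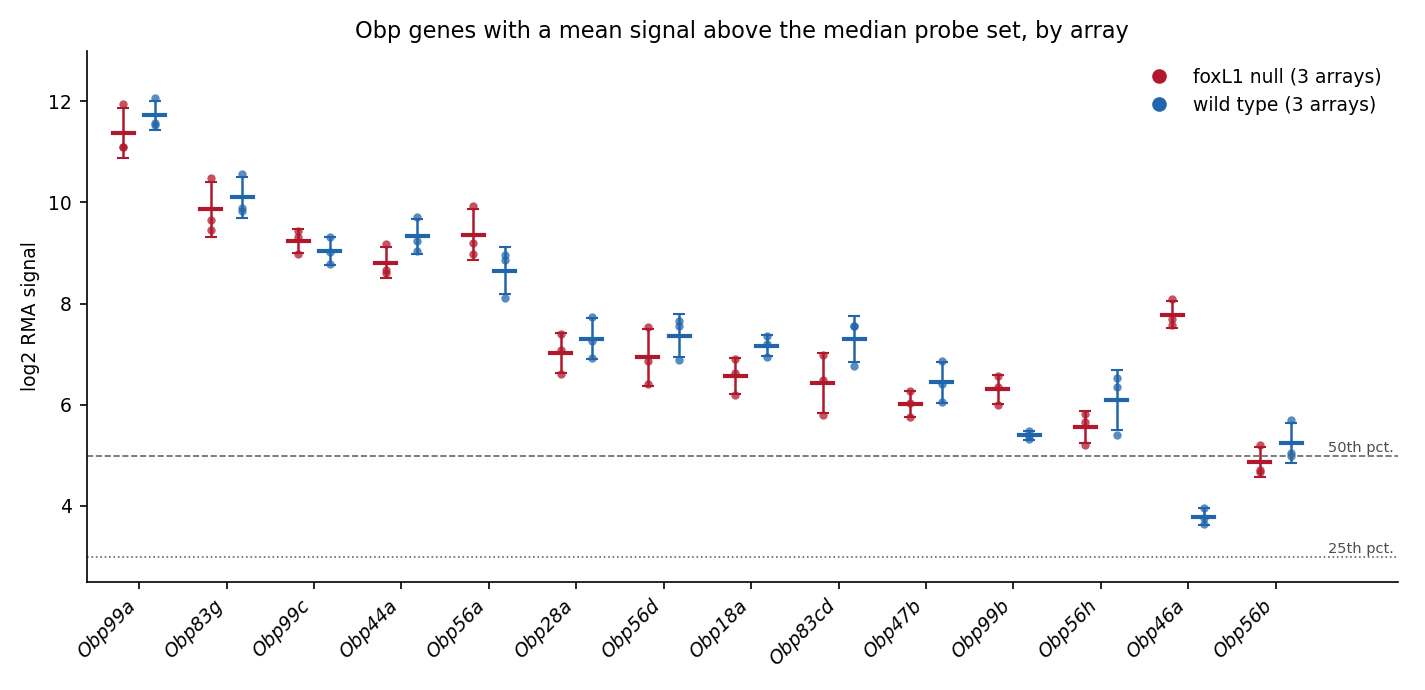
The 14 Obp genes with a mean signal above the median probe set. The vertical axis is the log2 RMA signal; for each gene the 3 null arrays stand left in red and the 3 wild-type arrays right in blue, with the mean as a horizontal bar and 1 SD as the error bar; dashed and dotted lines mark the 50th and 25th percentiles of all probe sets, 4.98 and 2.99. For Obp46a the null arrays lie between 7.57 and 8.08 and the wild-type arrays between 3.64 and 3.97; Obp99b, Obp56a and Obp18a are the other genes here whose arrays do not overlap.

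Most of the 14 brighter members were lower in the null embryos, as were most genes above the median signal. None of the lower members passed without the replicate block or array weights. Of the 14, Obp46a and Obp99b included, 10 had a difference below 0, beside 62.8% of all genes above the median signal. The median difference was -0.36 over the 14 and -0.11 over those genes. After centring on array medians 10 were still lower, beside 49.3% of those genes, and the medians were -0.24 and 0.006. By signal Obp56b is among the 10 only through its wild-type arrays, and Obp46a among the 14 only through its null arrays. The 14 embryonic tissue markers were also mostly lower, 12 of them, with a median difference of -0.35. At an unadjusted p under 0.05 there were 6 of the 14, beside 27.1% of all genes, a share not matched for signal. Of these markers 7.14% were called by limma, beside 14.5% of all genes above the median signal. The part of these markers in the lower Obp signals was not tested. In bulk RNA of whole embryos, fewer cells of a type and less RNA per cell cannot be told apart.

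Obp83cd had the lowest difference of the family. Its signals were 6.49, 5.80 and 6.98 in the null embryos, against 7.56, 6.77 and 7.56 in the wild type (difference -0.87, SE 0.32, limma adjusted p = 0.167, or 0.00445 with the replicate block). The highest null array lay above the lowest wild-type array. Obp18a read 6.89, 6.19 and 6.63 in the null embryos, against 7.36, 6.94 and 7.19 in the wild type. Its genotypes did not overlap, with a difference of -0.59 (SE 0.19, limma adjusted p = 0.121, or 0.0142 with the replicate block).

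Obp44a, a gene on arm 2R whose protein is known from glia of the larval nervous system, where it binds fatty acids, read 8.61, 8.66 and 9.17 in the null embryos. The wild-type arrays gave 9.72, 9.04 and 9.23, and the difference of -0.52 (SE 0.21) did not pass (limma adjusted p = 0.212). The values overlapped, and the pairs differed unequally, by -1.11, -0.39 and -0.06. Obp28a, an abundant protein of the antenna, had 7.40, 6.60 and 7.07 in the null embryos and 7.73, 6.93 and 7.26 in the wild type. These overlapped, at a difference of -0.28 (SE 0.25, limma adjusted p = 0.595).

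Several bright members belong to the cluster at band 56. Obp56a, next after Obp46a and Obp99b in the order of differences, had 8.97, 9.92 and 9.19 in the null embryos and 8.97, 8.87 and 8.11 in the wild type. The genotypes touched but did not overlap, since null array 1 exceeded wild-type array 1 by 0.0015 (difference 0.71, SE 0.30, limma adjusted p = 0.221). Obp56d, another antennal protein, read 6.87, 6.41 and 7.53 in the null embryos, against 7.65, 6.89 and 7.56 in the wild type (difference -0.43, SE 0.31, limma adjusted p = 0.498). Obp56h, which has been linked to male mating behaviour, had 5.67, 5.20 and 5.82 in the null embryos, against 6.52, 5.41 and 6.36 in the wild type (difference -0.53, SE 0.30, limma adjusted p = 0.366, or 0.0439 with the replicate block). Both Obp56d and Obp56h overlapped between the genotypes. Obp56b, at 5.20, 4.71 and 4.67 in the null embryos and 5.70, 4.98 and 5.04 in the wild type, differed by -0.38 (SE 0.22, limma adjusted p = 0.401).

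The other bright members overlapped between the genotypes as well. Obp99a read 11.09, 11.94 and 11.09 in the null embryos, against 11.57, 12.06 and 11.54 in the wild type (difference -0.35, SE 0.25, limma adjusted p = 0.510). Obp83g had 10.48, 9.46 and 9.65 in the null embryos, against 10.57, 9.84 and 9.90 in the wild type (difference -0.24, SE 0.30, limma adjusted p = 0.716). Obp99c was at 8.98, 9.31 and 9.44 in the null embryos, against 8.79, 9.32 and 9.01 in the wild type (difference 0.21, SE 0.17, limma adjusted p = 0.574).

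The bright members varied among arrays of the same genotype in a shared way. Array 2 was the lowest of its 3 in both genotypes for 6 of the 14, namely Obp83cd, Obp56h, Obp56d, Obp28a, Obp83g and Obp18a, that is 42.9%, beside 19.1% of all genes above the median signal. For Obp99a array 2 was the highest in both genotypes, as in 27.6% of all genes above the median signal. This was seen in the values first and is given as a description. With that block limma called 5 members, 10.6% of the family beside 17.0% of all genes. They were the same 2 rises with the falls of Obp83cd, Obp18a and Obp56h, which are 3 members, while 9.09% of all genes fell under the block. The pairs differed by -1.07, -0.97 and -0.58 for Obp83cd, by -0.46, -0.74 and -0.56 for Obp18a and by -0.85, -0.21 and -0.54 for Obp56h. These 3 genes were picked by the block. Negative differences in all 3 pairs were found in each of the 10 bright members that were lower, Obp56b included.

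**Figure D3:**
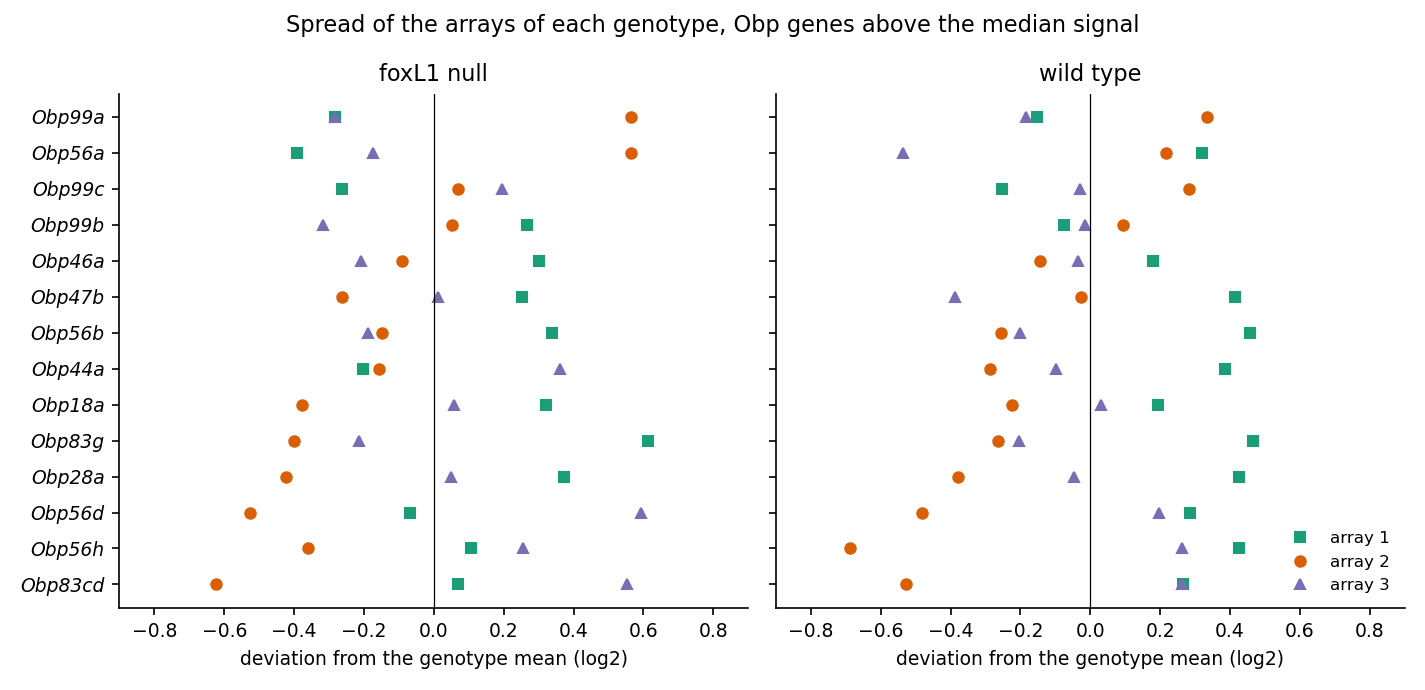
Deviation of each array from the mean of its own genotype, for the 14 Obp genes above the median signal. The horizontal axes are log2 units, with null arrays on the left and wild-type arrays on the right; squares, circles and triangles are arrays 1, 2 and 3, and genes are ordered by the summed deviation of array 2. Circles lie lowest in both panels for the 6 genes Obp83cd, Obp56h, Obp56d, Obp28a, Obp83g and Obp18a, and highest in both for Obp99a.

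The 33 members at or below the median signal showed no call and 0 with an unadjusted p under 0.05 for the brighter probe set, with differences between -0.35 (Obp58b) and 0.27 (Obp56e). Their standard errors ran from 0.09 to 0.39. In 3 of them the genotypes did not overlap. Obp56g was higher in every null array (difference 0.21, SE 0.10, limma adjusted p = 0.291), as was Obp56c (0.15, SE 0.09, adjusted p = 0.420), and Obp58c was lower (-0.19, SE 0.10, adjusted p = 0.345). Centring moves all differences up by 1 common amount, and 6 of these 33 that lay just below 0 thereby changed sign.

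Groups of members by adult organ were put together after the values were seen. Of 7 known antennal proteins, Obp28a and Obp56d lay above the median signal, 5 did not, as did 70.2% of the family, and 3 lay below the 25th percentile. Obp69a, which tunes responses to a male pheromone, read 2.87, 3.29 and 2.54 in the null embryos and 2.96, 3.06 and 2.88 in the wild type. Obp83b, also of the pheromone-sensing hairs, averaged 2.80 in the null embryos and 2.91 in the wild type. Obp84a, an antennal protein too, averaged 2.76 in the null embryos and 2.70 in the wild type. These 3 overlapped between the genotypes (limma adjusted p of 0.708 to 0.885).

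Obp59a, needed for sensing humidity, is among the 3 members with more than 1 probe set. The brighter one read 4.03, 4.04 and 4.25 in the null embryos, against 4.10, 4.15 and 4.16 in the wild type (difference -0.03, SE 0.11, limma adjusted p = 0.902). Its other probe set lay near the floor, at 2.08 in the null embryos and 1.82 in the wild type, and differed by 0.27 (SE 0.11, unadjusted p = 0.0456, limma adjusted p = 0.221). For the antennal Obp19a the brighter probe set read 3.02, 3.07 and 3.28 in the null embryos and 2.93, 2.97 and 3.10 in the wild type, while the other averaged 2.38 in both genotypes. Obp19c read 3.59, 3.59 and 3.61 in the null embryos and 3.56, 3.61 and 3.59 in the wild type, with its other probe set at 2.63 and 2.52. No pair of probe sets differed in its call.

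The 7 members known as seminal fluid proteins of the adult male, Obp8a, Obp22a, Obp51a, Obp56e, Obp56f, Obp56g and Obp56i, had mean signals of 2.21 to 3.64. None lay above the median signal, and 4 lay below the 25th percentile. Their differences ran from -0.20 to 0.27, 5 higher and 2 lower in the null embryos. The dimmest probe sets of the family were those of Obp57e, at 1.80, 2.16 and 2.14 in the null embryos and 2.09, 2.23 and 2.34 in the wild type, and Obp57a, at 2.10, 2.26 and 2.28 in the null embryos and 2.16, 2.07 and 2.07 in the wild type. Obp57e is known, with Obp57d, for a part in the choice of host plants.

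Position in the genome was not used to choose members. By arm, 26 of the 47 lie on 2R, 11 on 3R, 6 on X, 2 on 2L and 2 on 3L. In the gene order of the RefSeq annotation (Release 6 plus ISO1 MT), 29 members fall into 7 clusters of at least 2 measured members. In these, at most 3 other protein-coding genes separate annotated Obp neighbours. Obp46a, with 17 other members, stands outside them, and a member whose sole Obp neighbour was not measured counts as outside.

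**Figure D4:**
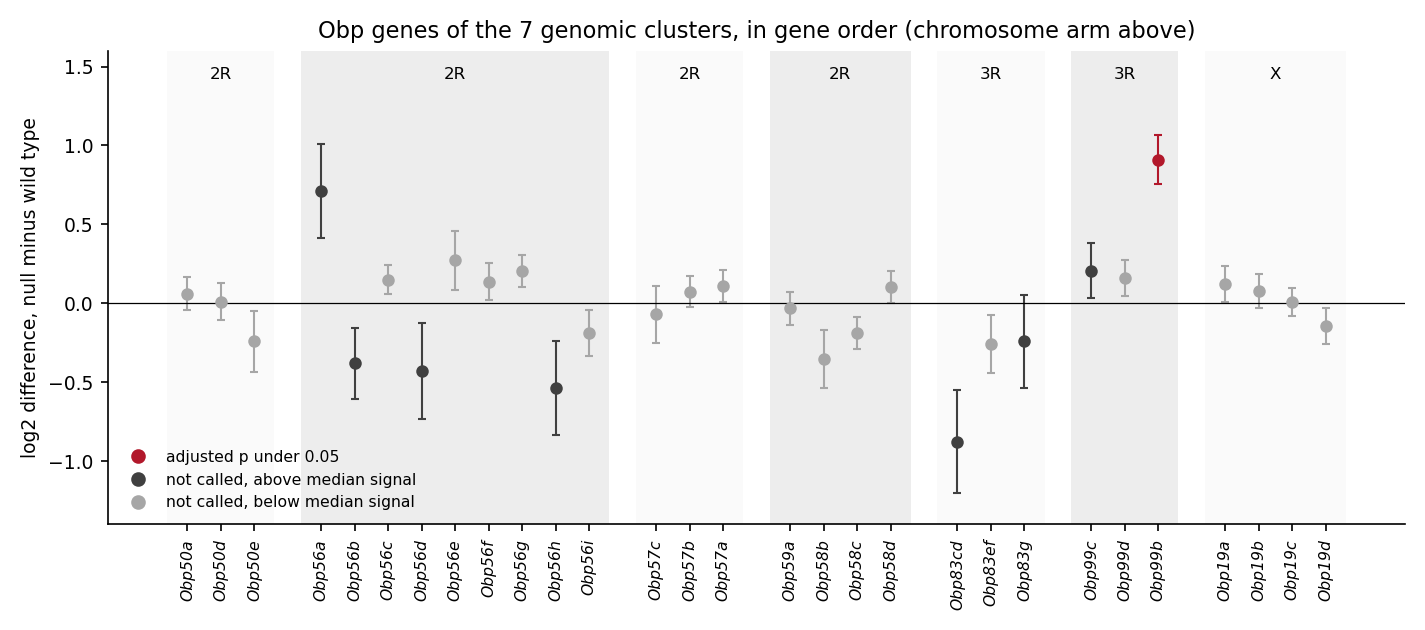
Obp genes of the 7 clusters in gene order along each chromosome arm. The vertical axis is the limma log2 difference, null minus wild type (3 arrays each), with bars of 1 standard error; red marks an adjusted p under 0.05, dark grey a member above the median signal and light grey a member below it. The 3 genes Obp83cd, Obp83ef and Obp83g all lie below 0, the 3 genes Obp99c, Obp99d and Obp99b all above 0, and the 9 genes at band 56 spread from -0.53 to 0.71.

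Neighbours in a cluster did not share 1 size of difference. At band 56 all 9 annotated genes were measured, 5 higher and 4 lower in the null embryos, and the highest, Obp56a, lies beside Obp56b at -0.38. At band 83 Obp83cd, Obp83ef and Obp83g differed by -0.87, -0.26 and -0.24. At band 99 Obp99c and Obp99d differed by 0.21 and 0.16, beside 0.91 for Obp99b, while Obp99a, outside that run, was at -0.35. The cluster from Obp19a to Obp19d on the X chromosome stayed within -0.14 and 0.12.

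No measured gene next to Obp46a passed the threshold in limma's fit. Of the 5 genes on each side, 6 had a probe set, with differences between -0.20 and 0.15. Of these 6, 0 passed, beside 10.2% of all genes, and 0 had an unadjusted p under 0.05, beside 27.1%. The gene next to it on one side, CG12909, read 7.88, 7.97 and 7.67 in the null embryos, against 8.13, 7.97 and 7.91 in the wild type (difference -0.16, SE 0.12, limma adjusted p = 0.514). On the other side Ndg, which encodes the basement membrane protein nidogen, read 9.66, 9.03 and 9.53 in the null embryos, against 9.37, 9.05 and 9.35 in the wild type (difference 0.15, SE 0.18, limma adjusted p = 0.714). Both overlapped between the genotypes.

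Around Obp99b 8 of 10 genes were measured and 1 passed, beside 10.2% of all genes. The gene that passed was Naa40, which encodes an N-terminal acetyltransferase of histones. It read 6.98, 7.13 and 7.09 in the null embryos, against 7.89, 7.66 and 7.45 in the wild type, so that it fell by 0.60 (SE 0.13, limma adjusted p = 0.0345), opposite to Obp99b. This call ended without null array 1, 2 or 3, without wild-type array 1 or 2, after centring and with no shared spread (adjusted p of up to 0.132 in these). The adjacent genes did not pass: Dup99B, a seminal fluid peptide gene, averaged 2.86 in the null embryos and 2.83 in the wild type. On the other side CG15506 was at 9.21, 8.04 and 8.63 in the null embryos and 9.23, 8.89 and 9.56 in the wild type (difference -0.60, SE 0.29, limma adjusted p = 0.296).

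**Figure D5:**
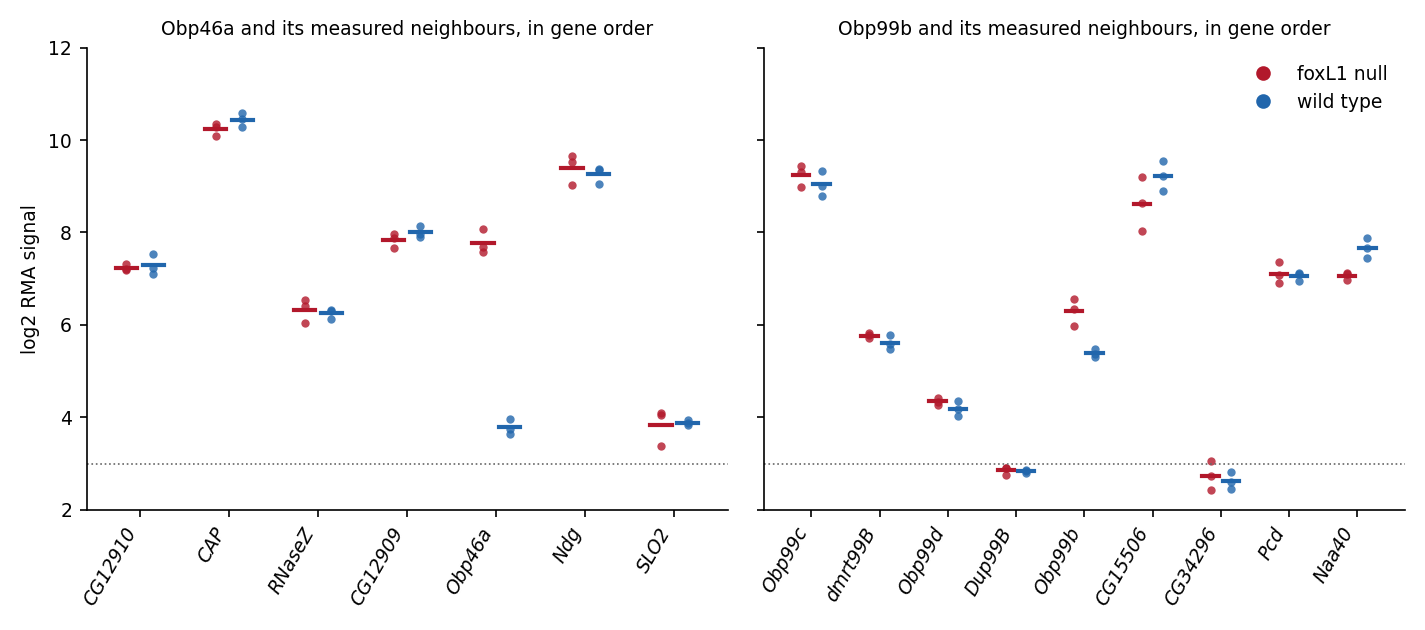
Obp46a (left) and Obp99b (right) among the measured genes of the 5 nearest on each side, in gene order. The vertical axis is the log2 RMA signal; red points are the 3 null arrays, blue points to their right the 3 wild-type arrays, horizontal bars the means and the dotted line the 25th percentile of all probe sets, 2.99. Signals are to be compared between genotypes within a gene: Obp46a stands at 7.78 in the null embryos and 3.79 in the wild type, while CG12909 and Ndg beside it differ by -0.16 and 0.15.

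No gene of the list of carriers outside the Obp symbols passed the threshold in limma's fit. Of 28 listed genes 20 were measured, among them chemosensory proteins of another fold, the CheA and CheB genes and the membrane proteins Snmp1 and Snmp2. Of the 20, 0 passed, beside 10.2% of all genes, and 0 had an unadjusted p under 0.05, beside 27.1% (median difference 0.03). These shares are not matched for signal: 11 of the 20 lay at or below the 25th percentile and 4 above the median, so the missing calls say little. The lowest p was that of CheB38c, at 3.99, 3.52 and 4.00 in the null embryos, against 4.27, 4.24 and 4.05 in the wild type (difference -0.35, SE 0.15, limma adjusted p = 0.236). The pheromone carrier lush, an odorant-binding protein by family but not by symbol, averaged 2.77 in the null embryos and 2.68 in the wild type, near the floor.

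Receptors that the carriers serve were dim by their mean over the 6 arrays. None of 57 measured odorant receptor genes passed and none had an unadjusted p under 0.05, with 40 of the 57 below the 25th percentile. Of 56 gustatory receptor genes 1 rose, Gr98b, at 4.27, 5.93 and 3.60 in the null embryos, against 2.39, 2.56 and 2.27 in the wild type (difference 2.19, SE 0.51, limma adjusted p = 0.0417). Its null arrays spread widely, and the call ended when null array 1 or any 1 of the wild-type arrays was left out (adjusted p of up to 0.142) and with no shared spread (0.223). Of 53 ionotropic receptor genes 2 rose and 0 fell, with 6 at an unadjusted p under 0.05. With the replicate block 1 of them fell, Ir76a, named after its values were seen, at 4.07, 3.33 and 3.59 in the null embryos, against 4.72, 4.22 and 4.57 in the wild type. Its limma adjusted p was 0.0538, or 0.00341 with the block (difference -0.84, SE 0.21).

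Ir64a, a receptor for acids in olfactory neurons of the antenna, read 5.01, 4.85 and 5.12 in the null embryos, against 4.04, 3.95 and 3.97 in the wild type. It was 2.00-fold higher in the null embryos (SE of the log2 difference 0.11, limma adjusted p = 0.00248), and it kept its call in 14 of 14 alternatives. Ir87a rose by 0.45 (SE 0.10, limma adjusted p = 0.0296), which was lost when null array 1 or 2 or any 1 of the wild-type arrays was left out (adjusted p of up to 0.130) and with a trend in eBayes (0.0617). None of these 3 receptor lists had a member above the median signal.

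In a list of genes of sense organs, their neurons and their support cells, 2 of 21 measured fell and 0 rose. The list mixes these cells and does not single out the support cells that secrete odorant-binding proteins. The share called was 9.52%, beside 10.2% of all genes in either direction and 4.00% called lower. Of the 21, 14 lay above the median signal, where 14.5% of all genes were called in either direction. At an unadjusted p under 0.05, 4 were lower and 0 higher. The falls were those of the proneural genes amos, which starts olfactory sense organs, and ato, which starts stretch receptors and some olfactory organs. The arrays read 3.72, 3.93 and 3.46 for amos in the null embryos, against 4.95, 5.09 and 4.69 in the wild type (difference -1.21, SE 0.16, limma adjusted p = 0.00455, or 0.0641 with no shared spread). For ato they read 4.84, 5.05 and 5.06 in the null embryos, against 5.85, 5.53 and 5.89 in the wild type (difference -0.77, SE 0.13, limma adjusted p = 0.0135), and that call ended without null array 1 or wild-type array 1 or 3 (adjusted p of up to 0.0697) and with no shared spread (0.0861). The summed linear signal of the list, in which bright probe sets weigh most, overlapped, at 2555 to 3805 in the null embryos and 2801 to 3300 in the wild type.

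Markers of other sources were set beside the rises of Obp46a and Obp99b. Among 17 measured egg and maternal genes 8 rose and 0 fell, beside the 6.24% of all genes called higher. Of the 17, 10 were higher and 7 lower, down to -0.67, with a median difference of 0.44. At an unadjusted p under 0.05, 9 were higher and 6 lower, the lower ones being png, Yp3, mtrm, cort, osk and Yp2, named after their values were seen. The list had a summed linear signal of 4487 to 4886 in the null embryos and 1630 to 2079 in the wild type, and 1 of the 17 lay below the 25th percentile. That sum does not weigh the 17 genes equally. Its brightest probe set, that of smg, averaged 10.97 in the null embryos and 9.05 in the wild type on the log2 scale. The lowest p was that of tor, which encodes the terminal receptor Torso, at 7.99, 7.76 and 7.82 in the null embryos, against 5.36, 5.25 and 5.52 in the wild type (difference 2.48, SE 0.12, limma adjusted p = 0.000116). The maternal genes plu, smg and swa rose by 1.88, 1.92 and 1.91. Their part in the Obp rises was not tested.

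Of 17 measured seminal fluid genes 1 fell, Anp, a male antibacterial peptide gene (difference -0.86, SE 0.19, limma adjusted p = 0.0315), and 0 rose. Anp lost its call when any 1 null array was left out, or wild-type array 2, or wild-type array 3, after centring and with no shared spread (adjusted p of up to 0.166). The list's summed signal was 165 to 178 in the null embryos and 175 to 179 in the wild type, with 11 of 17 genes below the 25th percentile. Embryonic tissue markers fell in 1 of 14 cases, bap, a homeobox gene of the visceral mesoderm (difference -0.52, SE 0.13, limma adjusted p = 0.0498), and in 2 with the replicate block. The call of bap was lost in 10 of 15 alternatives (adjusted p of up to 0.167). Their summed signal overlapped, at 3619 to 4919 in the null embryos and 4179 to 4810 in the wild type.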

How the data were processed

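The deposited values are log2 signals of 18952 probe sets on 6 arrays, made by the authors with RMA in Partek, per the submitters' processing notes, which give no versions; no genome build is given in the sources used here. RMA corrects background, is meant to set the arrays to a common distribution and summarises probes, and can thereby take out a change common to most transcripts. The deposited arrays still differed in their medians over the non-control probe sets. These were 4.94, 4.87 and 4.90 in the null embryos and 5.08, 4.96 and 5.02 in the wild type, so each null array lay lower. No detection calls were used.

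After 183 control probe sets were left out, 18769 remained, of which 13647 named 1 gene, 402 several and 4720 are unnamed here. Symbols were updated through the gene identifier for 13544 of the 13647 (RefSeq gene table, used for names, arms and gene order). Probe sets with several genes gave no names, which left out Obp50b, Obp50c and Obp57d. Obp83a is not among the measured members either. Protein and promoter sequences were not analysed here.

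Differences, null minus wild type, were fitted with limma 3.58.1 in R 4.3.3 (lmFit, eBayes, no covariates), with 2-sided p-values adjusted by Benjamini and Hochberg over 18769 probe sets and a threshold of 0.05. The script was tested on simulated data. An exact test of 3 against 3 arrays cannot go below 0.1, so calls rest on limma's model of the spread, and the number of arrays limits the precision. Values of all arrays are given for members past the adjusted or an unadjusted p of 0.05, for the 8 with the highest mean and for those with several probe sets, and for some further members named after their values were seen. From other lists up to 4 called genes were to be named, by smallest p, or up to 2 where none passed; not all are. Members and lists were chosen with earlier results of these data known.

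Same-numbered arrays deviated from their group means together (r = 0.108, 0.544 and 0.224 for numbers 1, 2 and 3), and each r exceeded 0.1, so arrays of 1 number were treated as pairs in the block. Null array 3 however correlated better with wild-type array 1 (r = 0.266) than with its own number, and null array 1 with wild-type array 3 gave r = 0.0597, so the pairing is not settled, and the labels do not say what the numbers mark. No 2 arrays shared more than 0.0852% of values. Alternatives were this block, each array left out, a further quantile normalization, centring on array medians, a trend in eBayes, array weights, filters on dim probe sets, the mean of a gene's probe sets and a model without shared spread.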

Additional observations from a re-analysis of the deposited data

How the results depend on the processing

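Obp46a kept its call in all 15 alternatives. With the replicate numbers as a block 5 members were called, 2 higher and 3 lower, in place of 2 and 0, and array weights called 1 lower, Obp83cd (limma adjusted p = 0.0419); the block changed no other call among the members. Leaving out single arrays gave 1 to 2 called members, all of them higher (1 without wild-type array 1 or 3, when Obp99b was lost), and 0 lower. A model with no shared spread called 1, Obp46a, with Obp99b at an adjusted p of 0.102. The family's median difference of -0.03 was 0.086 after centring on array medians, which moved the median of all genes from -0.07 to 0.05, and -0.11 and -0.36 over the members above the 25th and 50th percentiles of signal. Among the neighbours of Obp46a and Obp99b, 1 was called, and 0 to 1 without single arrays, 0 after centring and 0 with no shared spread. Over all other lists 15 genes were called, 8 to 15 without single arrays and 9 with no shared spread. Signal over background limits above all the 14 members at or below the 25th percentile. Counting members above the median signal alone, a choice made after seeing the data, gave 2 calls, but Obp46a passes that filter only through its null arrays, so its call there adds nothing.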
